A study of Mus musculus with 10 samples.

Results

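The mitochondrial ribosomal protein genes are the nuclear genes *Mrpl* and *Mrps*, whose products are made in the cytosol, imported and built into the ribosome of the mitochondrial matrix. They were taken as all protein-coding genes of GRCm38 whose symbol is Mrpl or Mrps followed by a number, which gave 78 of the 49315 genes in the count table. By name, 49 of them (Mrpl) belong to the large subunit and 29 (Mrps) to the small subunit. All 78 had enough counts to be tested, so no member was lost to the filter on low counts.

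RNA was sequenced from the gastrocnemius, a calf muscle, of 10 male mice labelled as of C57BL6J background, 5 AHRfl and 5 AHRmKO, all of them exposed to cigarette smoke. All 10 carried the floxed allele of *Ahr*, which encodes the aryl hydrocarbon receptor, a transcription factor that smoke constituents activate. The AHRmKO mice also carried HSA-MCM, a tamoxifen-inducible Cre recombinase driven by the human ACTA1 promoter in skeletal muscle fibres, while the AHRfl controls were littermates without Cre, so other cells of the muscle kept the receptor in both groups. Smoke was given for 16 weeks, on 5 days per week, 2 times per day for 1 h, at 220 ± 80 mg/m3, beginning some weeks after tamoxifen, and muscle was collected at most 72 h after the last exposure, with sources that differ on the exact time. No air-exposed mice were analysed here, and the age of the mice is not in the labels. The comparison is between smoke-exposed mice with and without Cre. Effects of Cre itself therefore cannot be told apart from those of losing the receptor in muscle fibres. The authors state that activation of the receptor is back at baseline by the time of this harvest.

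The mitoribosome translates the few messenger RNAs encoded by mitochondrial DNA, all of which give subunits of the respiratory chain and ATP synthase. Its small subunit binds the messenger RNA and reads the codons, and its large subunit joins the amino acids and passes the new chain through an exit tunnel to the inner membrane. Some of its proteins descend from bacterial ribosomal proteins and others were added in mitochondria, and inherited defects in many of them cause deficiencies of oxidative phosphorylation, often with heart or muscle disease.

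Total counts per mouse were between 30393035 and 37954388, each mouse gave 1 library with counts of its own and stands as 1 replicate. The 8 skeletal muscle markers, such as *Acta1*, summed to between 124888 and 167345 CPM, and reads of the Y-linked *Ddx3y* were present in all 10. *Xist*, which is transcribed from the inactive X chromosome, had 44 to 75 counts in AHRfl mice 11, 15 and 33 and AHRmKO mice 9 and 22, and 0 to 3 counts in the other 5, and what this means for the results was not tested. Of 14714 genes tested, edgeR's quasi-likelihood test called 1 at an adjusted p under 0.05, which is 0.0068% of the genes. *Ahr* itself was at 2.02 ± 0.681 CPM (SD, n = 5) in AHRfl and 1.58 ± 0.443 CPM (SD, n = 5) in AHRmKO muscle, with overlapping groups, a log2 fold change of -0.35 with all mice and -0.13 without AHRfl mouse 11. Its counts cover all exons of the gene, so they do not by themselves check the deletion. Of the gene lists compared here, the slow-fibre genes differed most between mice in summed level, which spanned 25.3-fold from the lowest to the highest mouse. CPM are the counts of a gene scaled to the TMM-normalized library size, and log2 fold changes are AHRmKO minus AHRfl throughout.

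The mitoribosomal genes were expressed in every mouse, and most were measured precisely. Of the 78 genes, 77 had at least 400 counts in every mouse, and the other, *Mrpl53*, had between 48 and 67. Together they took between 0.308% and 0.362% of the normalized counts of a mouse. Their median coefficient of variation (CV) over the 10 mice was 7.06% for Mrpl and 7.22% for Mrps genes, beside 14.9% over all genes tested.

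Levels between genes were compared only per kb of exon, as the mean over the 10 mice. Over all annotated exons, *Mrps21* was the highest small subunit gene at 117 CPM per kb, followed by *Mrps28* at 60.0 and *Mrps23* at 52.1 CPM per kb. *Mrps21* and *Mrps28* encode relatives of bacterial ribosomal proteins, and *Mrps23* encodes a protein with no bacterial counterpart. Among the large subunit genes, *Mrpl14*, whose product lies at the face that meets the small subunit, had the highest mean, 76.7 ± 9.16 CPM per kb (SD over the 10 mice), followed by *Mrpl2*, whose product lies near the peptidyl transferase centre, at 65.4 ± 4.56 and *Mrpl12* at 62.1 ± 4.66 CPM per kb. The ranges of mean ± SD overlap between *Mrpl14* and *Mrpl2* and between *Mrpl2* and *Mrpl12*. The genes were measured in the same mice, and their order within each mouse was not tested. At the lower end were *Mrps35* at 1.67, *Mrpl53* at 1.98, *Mrps30* at 2.47 and *Mrpl19* at 2.79 CPM per kb.

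This order depends on which length is used. Divided by the length of the principal transcript alone, *Mrpl42* became the highest of all at 283 CPM per kb, against 51.2 over all exons, and *Mrpl33* rose from 6.44 to 98.7 CPM per kb. *Mrps21* was the highest small subunit gene by both lengths, at 177 CPM per kb of its principal transcript.

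**Figure D1:**
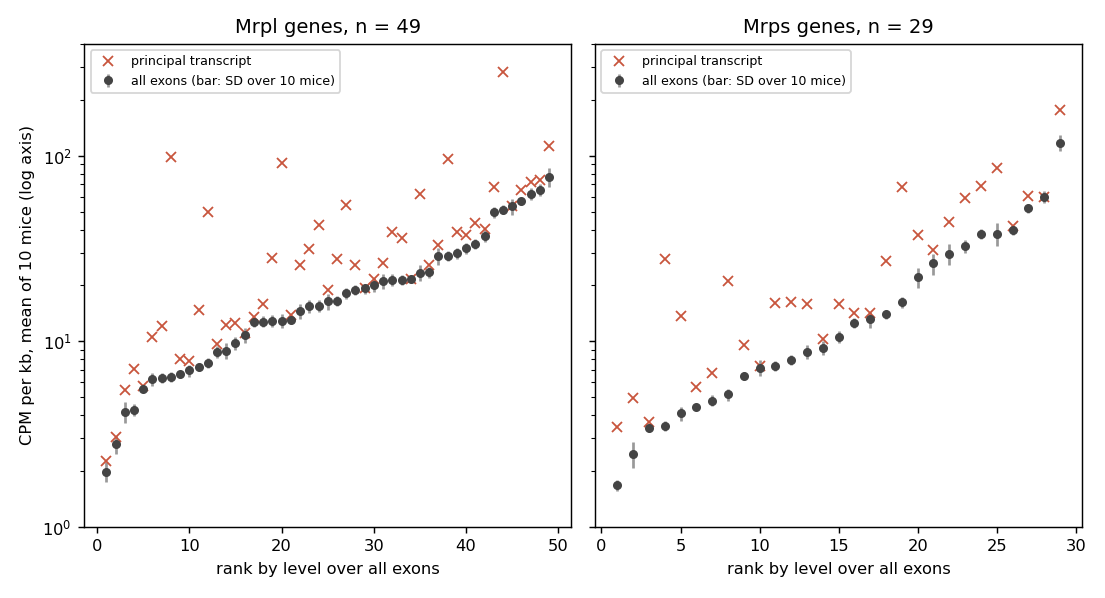
Level of each Mrpl (left) and Mrps (right) gene in CPM per kb, mean of 10 mice on a log axis, ranked by the level over all exons. Points use all exons with the SD over 10 mice as bars, and crosses use the principal transcript. *Mrps21* is at the top of the right panel by both lengths, and *Mrpl42* at 283 CPM per kb is the highest cross on the left.

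Between genotypes, the mitoribosomal genes differed little, and most were slightly lower in AHRmKO muscle. Of the 49 Mrpl genes, 44 had a log2 fold change under 0 (89.8%), with a median of -0.054 and a range from -0.17 to 0.078. Of the 29 Mrps genes, 23 were under 0 (79.3%), with a median of -0.044 and a range from -0.39 to 0.043. Over all genes tested, 48.5% were under 0 and the median was 0.0056. A log2 fold change under -0.1 was found for 22 of the 78, beside 24.1% of all genes. These counts describe the genes and are no test, since the genes vary together from mouse to mouse, and in bulk RNA fewer cells of a type cannot be told apart from less RNA per cell.

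No mitoribosomal gene passed an adjusted p of 0.05 in edgeR's quasi-likelihood test. At an unadjusted p under 0.05 there were 4, all lower in AHRmKO muscle, namely *Mrps30*, *Mrpl12*, *Mrps26* and *Mrpl34*. This is 5.13% of the 78 genes, beside 6.61% of all genes, 3.38% lower and 3.23% higher. The DESeq2 Wald test called 1 of the 78 at an adjusted p under 0.05, *Mrps30*, beside 0.193% of the genes to which it gave an adjusted p. The groups did not overlap for 2 of the 78 genes (2.56%), both lower, beside 1.4% of all genes, 0.714% lower and 0.686% higher. For 74 of the 78 the 95% interval of the log2 fold change included 0, and for 75 it lay between -0.4 and 0.4, so larger changes are outside the interval for these genes.

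**Figure D2:**
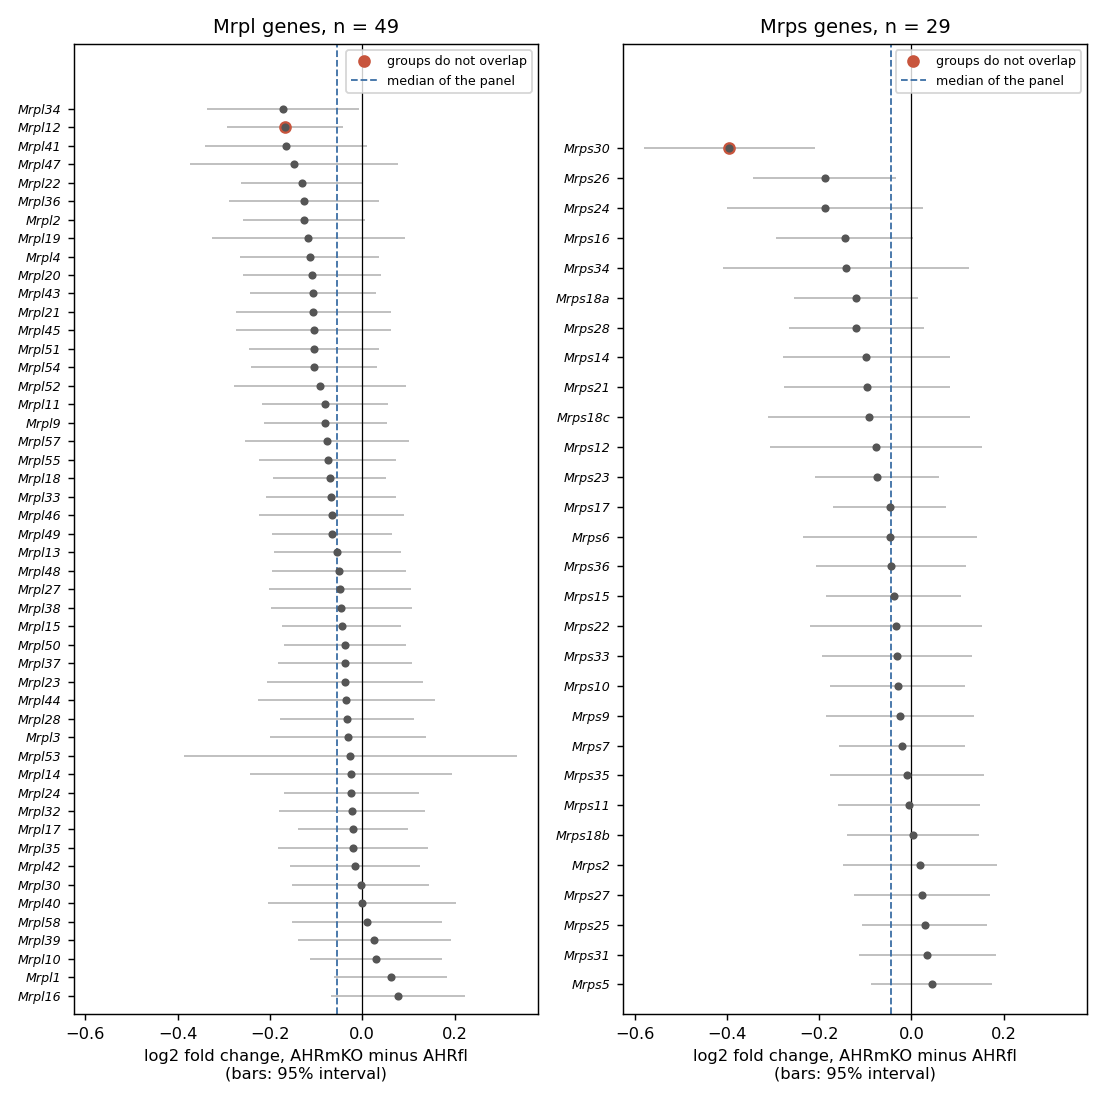
Log2 fold change of each Mrpl (left) and Mrps (right) gene, AHRmKO minus AHRfl, with its 95% interval, and the median of each panel as a dashed line at -0.054 and -0.044. Red points mark *Mrpl12* and *Mrps30*, whose groups do not overlap, and most other intervals cross 0.

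*Mrps30* had the largest difference of the 78 genes. It carries a small subunit name, but in solved structures its product sits in the large subunit, where it is one of the proteins added in mitochondria. The gene (ENSMUSG00000021731) spans 118378381 to 118387252 of chromosome 13 (GRCm38, minus strand). Its levels were 19.1, 19.8, 18.25, 17.1 and 19.35 CPM in AHRfl mice 11, 12, 13, 15 and 33, and 11.5, 15.4, 14.7, 14.5 and 15.25 CPM in AHRmKO mice 8, 9, 19, 22 and 34. Every AHRmKO mouse was below every AHRfl mouse, and mouse 8 was the lowest by a wide margin.

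The means of *Mrps30* were 18.7 ± 1.06 CPM (SD, n = 5) in AHRfl and 14.2 ± 1.6 CPM (SD, n = 5) in AHRmKO muscle. On the log2 scale the difference was -0.39 (95% interval -0.58 to -0.21, standard error 0.086), with an adjusted p of 0.606 in edgeR's quasi-likelihood test and 0.0497 in the DESeq2 Wald test. The two-sided exact permutation test gave p = 0.00794, the smallest it can give with 5 and 5 mice, as for any gene whose groups do not overlap. Without AHRmKO mouse 8 the log2 fold change was -0.33, and over all mice left out in turn it was between -0.42 and -0.33. Its CV of 16.3% was the highest of the 78 genes. Of its exon bases 9.35% also belong to *B430218F22Rik* on the opposite strand, and since the sources do not say whether the library kept the strand, reads there may come from either gene.

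*Mrpl12* encodes the mobile stalk protein of the large subunit, which helps to recruit the translation factors. The gene (ENSMUSG00000039640) spans 120484613 to 120489065 of chromosome 11 (plus strand). Its levels were 99.6, 98.9, 97.7, 107 and 101 CPM in AHRfl mice 11, 12, 13, 15 and 33, and 86.4, 91.0, 95.2, 93.2 and 82.7 CPM in AHRmKO mice 8, 9, 19, 22 and 34. The groups did not overlap, with a gap between AHRmKO mouse 19 and AHRfl mouse 13 that is smaller than the spread within either group. The difference on the log2 scale was -0.17 (95% interval -0.29 to -0.041, standard error 0.058), with an adjusted p of 0.665 in edgeR's test. The two-sided exact permutation test gave p = 0.00794, which follows from groups that do not overlap and adds nothing to that observation. Of the exon bases of *Mrpl12*, 13.1% are shared with the lincRNA *Gm16755* on the opposite strand.

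*Mrps26* encodes a small subunit protein with no bacterial counterpart. Its levels were 32.6, 37.1, 32.8, 33.01 and 31.3 CPM in the AHRfl mice and 26.6, 27.5, 32.6, 30.8 and 28.9 CPM in the AHRmKO mice, in the order given above. AHRmKO mouse 19 reached into the AHRfl range, and the other 4 AHRmKO mice were below every AHRfl mouse. Its log2 difference was -0.19 with a standard error of 0.072 (edgeR's adjusted p = 0.665), and the two-sided exact permutation test gave p = 0.0238.

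*Mrpl34* encodes one of the smallest proteins of the large subunit, a relative of a bacterial protein. Its levels were 34.2, 32.6, 30.0, 39.5 and 35.1 CPM in the AHRfl mice and 29.8, 29.7, 33.5, 30.1 and 29.0 CPM in the AHRmKO mice. The groups overlapped, through AHRfl mouse 13 on the low side and AHRmKO mice 19 and 22 on the high side. Its log2 difference was -0.17 with a standard error of 0.076 (edgeR's adjusted p = 0.734), and the two-sided exact permutation test gave p = 0.0556.

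**Figure D3:**
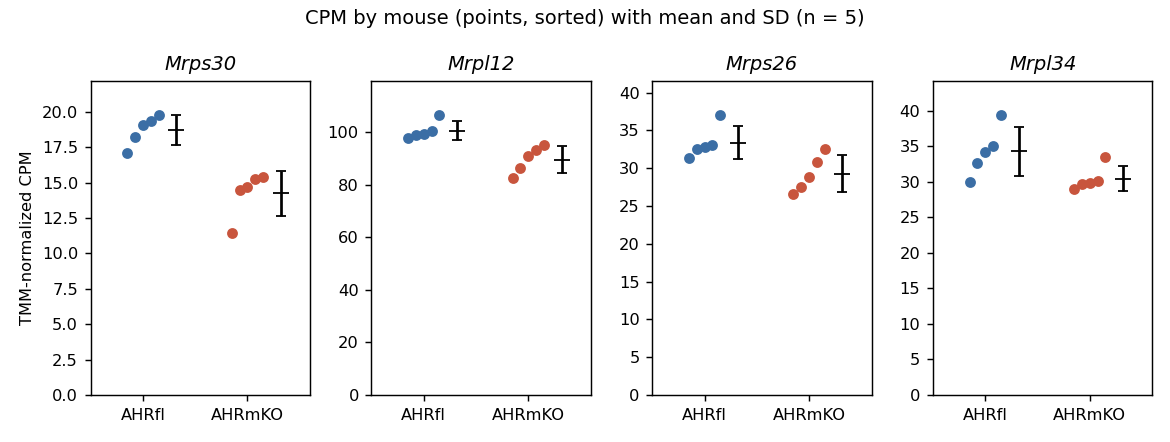
CPM of *Mrps30*, *Mrpl12*, *Mrps26* and *Mrpl34* in each mouse (points, sorted within a group) with the mean and SD (n = 5), on axes that start at 0. The groups are separate for *Mrps30* and *Mrpl12* and overlap for *Mrps26* and *Mrpl34*.

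The promoter windows of *Mrps30* and *Mrpl12* are shown because the groups did not overlap for these genes and they differ in the letters they hold for factors known to act at genes of mitochondrial function. Each window is RefSeq sequence of GRCm38.p6, from 250 bases before to 50 bases after a RefSeq start, and is written 5′ to 3′ along the gene. It is chr13:118387203-118387502 on the minus strand for *Mrps30* and chr11:120484387-120484686 on the plus strand for *Mrpl12*. Capitals mark matches, on either strand, to CCGGAAG (ETS factors such as GABP), GCGCNTGCG (NRF1), AANATGGCG (YY1), GCGTG (the core bound by the receptor with its partner ARNT) and TNGCGTG (the same core with flanking letters, so that each such match also holds the core).
Mrps30: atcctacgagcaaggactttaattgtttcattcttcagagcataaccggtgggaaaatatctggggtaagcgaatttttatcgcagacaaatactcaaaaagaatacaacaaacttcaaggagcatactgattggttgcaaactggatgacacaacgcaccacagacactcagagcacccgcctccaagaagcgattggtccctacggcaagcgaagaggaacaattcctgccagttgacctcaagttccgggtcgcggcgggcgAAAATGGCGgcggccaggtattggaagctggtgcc
Mrpl12: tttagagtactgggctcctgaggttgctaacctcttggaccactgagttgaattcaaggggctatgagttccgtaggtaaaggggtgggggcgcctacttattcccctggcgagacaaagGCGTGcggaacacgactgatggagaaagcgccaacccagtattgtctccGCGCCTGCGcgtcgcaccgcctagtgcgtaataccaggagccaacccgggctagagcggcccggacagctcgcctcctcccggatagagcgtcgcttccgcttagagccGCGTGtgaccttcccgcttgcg
The *Mrps30* window holds 1 match, to the YY1 letters, which begins 15 bases after the start and contains an ATG, the letters of a start codon. It holds no match to the core GCGTG. The *Mrpl12* window holds 1 match to the NRF1 letters, which begins 81 bases before the start, and 2 to the core GCGTG.

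Such windows were at hand for 69 of the 78 genes, 75 windows in all because 3 genes have more than 1. The ETS letters were in 26 of the 75 windows (34.7%), beside 8.86% of all 32851 windows of the same length. The NRF1 letters were in 18 (24.0%, beside 6.31%) and the YY1 letters in 11 (14.7%, beside 2.38%). The core GCGTG was in 42 (56.0%, beside 32.4%), and the longer TNGCGTG in 5 (6.67%, beside 5.07%). The shares for the core were alike in the subunits, 56.2% of Mrpl and 55.6% of Mrps windows. The windows of *Mrpl2* overlap each other, as do those of *Mrps16*, so the windows are not independent. The set of all windows was not matched to them in base composition. A match describes the letters only and shows neither binding nor regulation.

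Of the other large subunit genes with the smallest p, *Mrpl22*, whose product lines the exit tunnel, was at -0.13 on the log2 scale (standard error 0.061). *Mrpl2* was at -0.13 (standard error 0.062), and *Mrpl41*, which encodes a protein added in mitochondria, was at -0.16 (standard error 0.082). None of these 3 passed an adjusted p of 0.05 in edgeR's test, where the values were between 0.757 and 0.774, and their groups overlapped. *Mrpl47*, the most variable of the Mrpl genes with a CV of 12.98%, was at -0.15 on the log2 scale, with an interval at 95% from -0.37 to 0.077, and at -0.094 without AHRmKO mouse 34 or -0.23 without AHRfl mouse 12. *Mrpl17*, the least variable at 3.77%, was at 42.3 ± 1.19 CPM (SD, n = 5) in AHRfl and 41.7 ± 2.00 CPM (SD, n = 5) in AHRmKO muscle.

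Among the small subunit genes, *Mrps16*, in which mutations cause a defect of mitochondrial translation, was at -0.15 on the log2 scale (standard error 0.068). *Mrps24* had -0.19 (standard error 0.099), but -0.11 without AHRmKO mouse 8 and -0.26 without AHRmKO mouse 19. *Mrps18a* was at -0.12 (standard error 0.062) and *Mrps28* at -0.12 (standard error 0.068). The adjusted p of these 4 in edgeR's test was between 0.757 and 0.808. *Mrps17* was the steadiest Mrps gene, with a CV of 4.07%, and its log2 fold change was -0.047 (95% interval -0.17 to 0.075), or -0.027 without AHRfl mouse 12. *Mrps36* carries a ribosomal name, although later work places its product in the 2-oxoglutarate dehydrogenase complex, and it was at 42.3 ± 4.13 CPM (SD, n = 5) in AHRfl and 41.0 ± 2.65 CPM (SD, n = 5) in AHRmKO muscle.

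Placing *Mrps30* and *Mrps18a* with the large subunit, as in solved structures, and leaving *Mrps36* out gave 51 large subunit genes, of which 46 were lower with a median of -0.066. It left 26 small subunit genes, of which 20 were lower with a median of -0.036. The 3 paralogs *Mrps18a*, *Mrps18b* and *Mrps18c*, of which the first is a large subunit protein by structure and the others small subunit proteins, had log2 fold changes of -0.12, 0.0036 and -0.092.

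Within the large subunit, the genes for the 7 proteins of the central protuberance, where the subunits touch at the top, were all lower. Their median was -0.051 and their range was from -0.091 to -0.00041. Of the genes for the 5 proteins at or near the L7/L12 stalk, 4 were lower with a median of -0.080. *Mrpl12* was the lowest, and *Mrpl10*, whose product anchors the stalk, was at 0.031. Of the 7 genes for proteins around the exit tunnel, 6 were lower with a median of -0.034. None of these groups held a gene past an adjusted p of 0.05 in edgeR's test.

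The genes were also grouped by the origin of their proteins. Genes for large subunit proteins with a bacterial relative had a median of -0.054 (26 of 29 lower). Genes for those added in mitochondria had -0.066 (20 of 22 lower), with *Mrps30* and *Mrps18a* included. *Mrps18a* belongs to the same protein family as *Mrps18b* and *Mrps18c*, which are nonetheless counted with the bacterial relatives of the small subunit. In the small subunit the medians were -0.047 (14 of 17 lower) and -0.031 (6 of 9 lower). These medians are a description, and the differences between them were not tested.

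Seen mouse by mouse, the mitoribosomal genes moved together, and the AHRmKO mice were spread more widely than the AHRfl mice. In the medians over the 78 genes given below, this wider spread came through AHRmKO mouse 19, since the other 4 AHRmKO mice lay between -0.097 and -0.022. In the summed Mrps level the other 4 also spread more widely than the AHRfl mice. As the log2 CPM of a gene minus its mean over the 10 mice, the median over the 78 genes was -0.0065, 0.026, 0.021, 0.072 and 0.043 in AHRfl mice 11, 12, 13, 15 and 33. It was -0.097, -0.083, 0.12, -0.022 and -0.066 in AHRmKO mice 8, 9, 19, 22 and 34. Mouse 19 was thus the highest of all 10 and the other 4 AHRmKO mice were the lowest, so that the genotypes overlapped through 1 animal.

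Gene counts gave the same picture. In AHRmKO mouse 19, 74 of the 78 genes were above their own mean, and 34 had their highest value there. In mice 8, 9 and 34, only 10, 12 and 16 of the 78 were above their mean, and 29, 18 and 16 had their lowest value there. Mouse 22 had 30 of 78 above the mean, and the AHRfl mice had between 36 and 60.

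**Figure D4:**
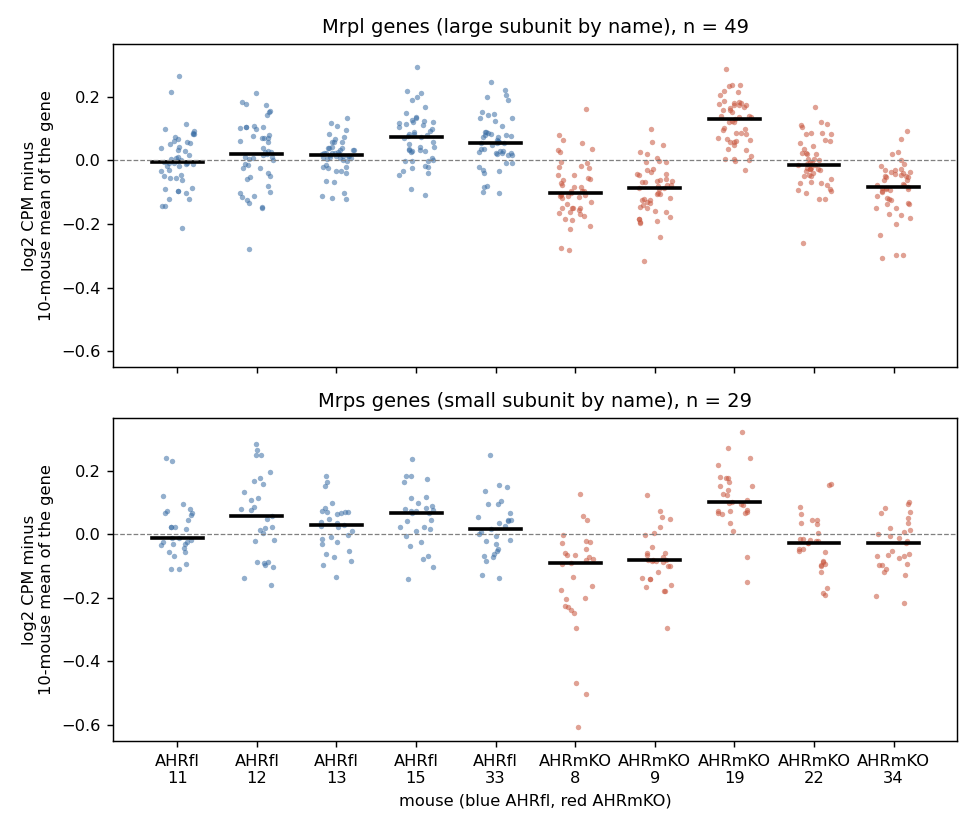
Log2 CPM minus the 10-mouse mean of the gene, for every Mrpl gene (top) and Mrps gene (bottom) in each mouse, with the median as a black bar. AHRmKO mouse 19 has the highest median in both panels (0.13 and 0.10), and mice 8 and 9 are the lowest in both.

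The summed Mrpl level was 2294 ± 51.9 CPM (SD, n = 5) in AHRfl and 2201 ± 145 CPM (SD, n = 5) in AHRmKO muscle. The summed Mrps level was 1105 ± 16.2 and 1051 ± 81.0 CPM (SD, n = 5). The difference between the means was smaller than the SD of the AHRmKO mice for both subunits. This comparison depends on AHRmKO mouse 19, whose sums were 2440 and 1181 CPM. The other AHRmKO mice were at 2100 to 2240 CPM for Mrpl and 960 to 1049 CPM for Mrps genes. The AHRfl mice were at 2230 to 2359 and 1089 to 1129 CPM. Without mouse 19 the Mrpl sums thus still overlapped, through AHRmKO mouse 22 and AHRfl mouse 11, and the Mrps sums did not. The ratio of the Mrps to the Mrpl sum was 0.482 ± 0.0124 in AHRfl and 0.477 ± 0.0167 in AHRmKO muscle (SD, n = 5). The summed RNA levels by gene name thus kept nearly the same proportion in both genotypes. This ratio counts *Mrps30*, *Mrps18a* and *Mrps36* with the Mrps genes and does not measure the subunits themselves. The lowest ratio, 0.453, was that of AHRmKO mouse 8.

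How many genes reached the unadjusted threshold depended on single mice. Without AHRmKO mouse 19, 20 of the 78 were at an unadjusted p under 0.05 in edgeR's test, all lower in AHRmKO muscle, beside 4.05% of all genes lower at that threshold, and the medians were -0.10 for Mrpl and -0.074 for Mrps genes. Without AHRmKO mouse 8 it was 2 of 78 (2.56%), beside 2.81% of all genes lower in that fit, with a median of -0.029 for the Mrps genes, and without AHRmKO mouse 9 that median was -0.027. No mitoribosomal gene passed an adjusted p of 0.05 in edgeR's test with any of the 10 mice left out.

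Mouse 8 was furthest below the mean in *Mrps34*, *Mrps30* and *Mrps24*, of which *Mrps34* was singled out after its values were seen. *Mrps34*, which encodes a small subunit protein added in mitochondria, was at 51.0 CPM in mouse 8, against 77.9, 93.7, 72.7 and 78.0 CPM in AHRmKO mice 9, 19, 22 and 34 and 78.8 to 88.1 CPM in the AHRfl mice. Its log2 difference between genotypes was -0.14, with a standard error of 0.12. Its exons overlap *Mapk8ip3* on the opposite strand over 63.4% and *Nme3* on the same strand over 37.0% of their length, so the share of its reads that unique counting kept is uncertain.

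Other members also share exons with neighbours. *Mrpl53* shares 88.0% of its exon bases with the readthrough gene *Gm42688* on the same strand, where counting cannot assign the reads to 1 gene, and its count of at most 67 may be a small part of its reads. *Mrps25* shares 69.8% with *Nr2c2* and *Mrpl19* 36.0% with *Gcfc2*, both on the opposite strand. *Mrps24* shares 15.4% with *Urgcp* and *Mrps6* shares 19.9% with *Gm49711* and 10.4% with *Slc5a3* on the same strand. *Mrpl46* and *Mrps11*, a large and a small subunit gene side by side on chromosome 7, share 173 exon bases on opposite strands and had log2 fold changes of -0.066 and -0.0051.

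The other genes of mitochondrial translation did not all lean the same way. Of 6 genes for mitoribosomal proteins named outside the Mrp scheme, 5 were lower, with a median of -0.063. *Gadd45gip1* was the lowest at -0.15 (standard error 0.071). Of 15 translation factor genes tested, 9 were lower with a median of -0.039. *Taco1*, an activator of the translation of cytochrome c oxidase subunit 1, was the 1 at an unadjusted p under 0.05, beside 6.61% of all genes, and it was higher in AHRmKO muscle, by 0.20 on the log2 scale (standard error 0.091, edgeR's adjusted p = 0.741) with all mice and by 0.12 without AHRfl mouse 12.

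Of 29 assembly factor genes, 15 were lower with a median of -0.0090. At an unadjusted p under 0.05 there were 3, all lower, beside 3.38% of all genes lower. They were *Ngrn*, *Mpv17l2* and *C1qbp*, at -0.22, -0.30 and -0.24. *Ngrn* is needed for the stability of the large subunit ribosomal RNA. It was between 21.4 and 23.8 CPM in AHRfl and between 17.2 and 21.2 CPM in AHRmKO mice. It was 1 of 2 assembly factor genes (6.9% of the 29) whose groups did not overlap, both lower, beside 0.714% of all genes lower without overlap. Of 22 genes for mitochondrial aminoacyl-tRNA synthetases and related enzymes, 9 were lower with a median of 0.017. Of these 22, 2 (9.09%) were at an unadjusted p under 0.05, *Cars2* and *Yars2*, both lower, beside 3.38% of all genes lower. *Cars2*, which charges the cysteine tRNA, was between 16.5 and 18.5 CPM in AHRfl and between 13.5 and 15.6 CPM in AHRmKO mice, a difference of -0.25 on the log2 scale (standard error 0.068). The groups of *Cars2* did not overlap either, and none of these genes passed an adjusted p of 0.05 in edgeR's test.

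The 13 protein-coding genes of mitochondrial DNA, whose messenger RNAs the mitoribosome translates, had a median log2 fold change of 0.020, with 6 of them lower. The libraries were selected for poly(A), and only uniquely mapped reads were counted. Of the 13 genes, 6 were counted at only 3.81 to 43.7 CPM, and the reason was not tested. Over the other 7, all above 100 CPM, a limit set after the data were seen, 4 were lower and the median was -0.012. The nuclear genes for subunits of oxidative phosphorylation, whose products join the mitochondrial ones, had 71 of 75 lower with a median of -0.092, and 7 (9.33%) were at an unadjusted p under 0.05, all lower, beside 3.38% of all genes lower at that threshold. *Cox5a*, a subunit of cytochrome c oxidase, was the first of them at -0.23 (standard error 0.074, adjusted p = 0.627 in edgeR's test). The genes for cytosolic ribosomal proteins, whose reads can be shared with processed copies elsewhere in the genome, had 68 of 86 lower with a median of -0.038, so a count of lower genes above that of all genes was not particular to mitoribosomal genes.

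In each mouse these groups followed each other in part. In AHRmKO mouse 19 the Mrpl, Mrps, nuclear oxidative phosphorylation and cytosolic ribosomal medians were all between 0.10 and 0.13 above the mean, and in mice 8 and 9 all 4 were below it. In AHRfl mouse 12 the cytosolic ribosomal median was 0.14, the Mrpl median 0.020 and that of the mtDNA messenger RNAs -0.38. In AHRmKO mouse 34 the Mrpl median was -0.083 and the nuclear oxidative phosphorylation median -0.17, while the cytosolic ribosomal median was 0.0035.

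**Figure D5:**
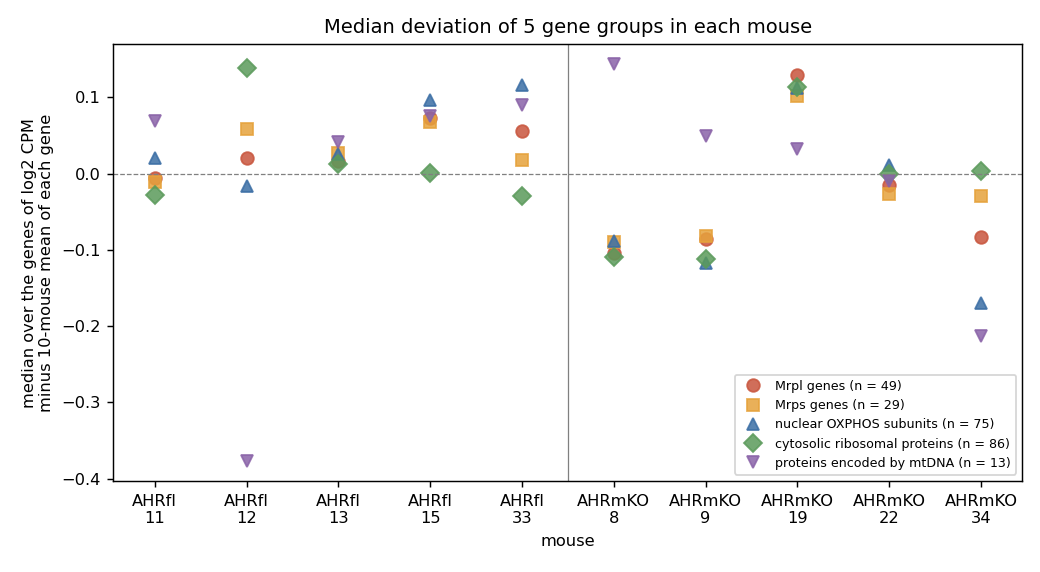
Median over the genes of log2 CPM minus the 10-mouse mean of each gene, for 5 gene groups in each mouse. In AHRmKO mouse 19 the Mrpl, Mrps, nuclear oxidative phosphorylation and cytosolic ribosomal symbols lie together near 0.1, and in AHRfl mouse 12 the mtDNA symbol lies at -0.38.

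Genes of other fibre and cell types also varied between these mice. The summed slow-fibre level was between 94.8 and 2019 CPM in AHRfl and between 252.4 and 2395 CPM in AHRmKO mice, and all 8 slow-fibre genes had a log2 fold change above 0, with a median of 0.42 and a median standard error of 1.07. With the mean slow-fibre level of each mouse as a covariate, 46 of 49 Mrpl and 25 of 29 Mrps genes were lower, with medians of -0.063 and -0.055, and no member passed an adjusted p of 0.05 in edgeR's test. The summed levels ranged from 110.1 to 177 and 98.4 to 180.4 CPM for the adipocyte markers, from 131 to 195 and 143 to 250.1 CPM for the endothelial markers, and from 62.8 to 113 and 35.0 to 106 CPM for the Schwann cell markers, AHRfl first. They ranged from 29.4 to 48.6 and 24.3 to 60.2 CPM for the macrophage markers, from 240 to 425 and 241 to 456 CPM for the fibroblast markers, and from 105 to 322 and 143 to 483 CPM for the erythroid markers. All but 1 of these markers had enough counts to be tested, none passed an adjusted p of 0.05 in edgeR's test, and their part in the mitoribosomal values was not tested.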

How the data were processed

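RNA from the gastrocnemius of 5 AHRfl and 5 AHRmKO mice was sequenced as poly(A)-selected paired-end libraries. The authors used Trimmomatic 0.36 for trimming, STAR 2.5.2b for mapping to GRCm38 and featureCounts to count uniquely mapped exonic reads by gene, and they deposited raw counts, 1 column per mouse, not normalized or pooled. The Ensembl release and strandedness are not given in the sources used here.

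Of 49315 gene identifiers, 49056 (99.47%) were matched to GENCODE M21, which gave the symbols, positions and exon lengths. In R 4.3.3, edgeR 4.0.16 filtered genes (filterByExpr, minimum count 10, minimum total 15), normalized by TMM and compared genotypes by the robust quasi-likelihood test, with Benjamini-Hochberg adjustment over 14714 genes. TMM scaling also underlies all CPM values. The prior count of log2 CPM was 2. Intervals at 95% come from the fit. Exact permutation tests were two-sided over 252 assignments. The fit was run on simulated data with known changes. These were all larger in size than the log2 fold changes of the mitoribosomal genes, so smaller changes were not covered.

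The alternatives were DESeq2 1.42.0, limma-voom (limma 3.58.1), DESeq2 size factors, library size only, mtDNA genes left out, other filters, a slow-fibre covariate (mean log2 CPM of 8 genes), each mouse left out, a threshold of 0.1, and subunits by structure. The length of the principal transcript and the split of the mtDNA genes at 100 CPM were added after seeing the data. The members and lists were chosen with earlier results of these data known. Named members are, per subunit, the 5 with the smallest p, those whose groups do not overlap, the 3 highest and 2 lowest in level, the most and least variable, *Mrps18a*, *Mrps30*, *Mrps36*, *Mrpl12* and *Mrps6*, with *Ahr*, and per list the gene with the smallest p.

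A count of 3, read as the smallest signal, corresponds to 0.079 to 0.0987 CPM before normalization. Reads carry no molecular identifiers, so this limit covers counting error only. The labels give genotype, strain background, treatment and an animal number, but no litter, cage or batch. The p-values set the difference between genotypes against the spread between these mice. Effects of litter, cage or batch could not be told apart from either.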

Additional observations from a re-analysis of the deposited data

Results flagged for a closer look

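In 5 of 76 groups of 5 mice examined, 1 mouse stood far from the other 4 (Dixon's ratio of the gap to the range, taken on log2 CPM, above 0.71). At 1 in 20, 3.8 of 76 independent groups would be flagged. The groups here share mice, and many of their genes were named from these data, so 3.8 is not their chance rate. *Mrps30* was low in AHRmKO mouse 8, at 11.48 CPM against 14.46 to 15.38 CPM in the other AHRmKO mice (ratio 0.789). *Mrpl34* was high in AHRmKO mouse 19, at 33.53 CPM against 29.03 to 30.13 CPM (ratio 0.742). *Mrps23* was high in the same mouse, at 90.07 CPM against 74.7 to 77.51 CPM (ratio 0.802). *Taco1* was low in AHRmKO mouse 34, at 34.87 CPM against 37.28 to 38.12 CPM (ratio 0.752). *Cox5a* was low in AHRfl mouse 12, at 308.3 CPM against 354.1 to 364.5 CPM (ratio 0.828).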

How the results depend on the processing

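Under the 8 other tests, scalings, filters and covariates and with each of 10 mice left out, the Mrpl and Mrps medians stayed under 0. They were between -0.101 and -0.041 for Mrpl and between -0.074 and -0.027 for Mrps genes. The median of all genes also fell under 0 in some of these fits. It was -0.032 with DESeq2 (54.2% under 0) and -0.028 without a filter on low counts (53.9%). The Mrps medians there were -0.044 and -0.042. Of all genes, 21 were called by DESeq2, 5 without a filter on low counts, 2 with the slow-fibre covariate, and 1 to 6 with a mouse left out (6 without AHRmKO mouse 34). DESeq2 called 1 Mrps gene, *Mrps30*, and so 1 of the Mrpl and Mrps genes together, and gave an adjusted p to 77 of them. The adjusted p of *Mrps30* was between 0.0497 and 0.619 over these settings and up to 0.994 with a mouse left out. The number of members at an unadjusted p under 0.05 was 11 with library size only, where 4.97% of all genes were lower at that threshold, the median of all genes was -0.012 and 53.5% of them were under 0, and 2 to 20 with a mouse left out. The causes of these changes were not tested. Of 683 values of named genes under alternatives, 15 changed direction, in 8 genes. *Atp2a2* was -0.0054 with the slow-fibre covariate. With a mouse left out, log2 fold changes ranged from -0.082 to 0.040 for *Mrpl14*, -0.084 to 0.014 for *Mrps36*, -0.053 to 0.039 for *Mrps35*, -0.11 to 0.037 for *Mrpl53*, -0.037 to 0.0051 for *Mrpl17*, -0.096 to 0.016 for *Mrps6*, -0.046 to 0.95 for *Atp2a2* and -0.026 to 0.94 for *Cidec*. Among the members, *Mrpl53* had the fewest counts, 48 to 67 a mouse. No paired analysis was possible because the animal numbers do not repeat between genotypes.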
